A study of Mus musculus with 3 samples.

Results

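The cells described here were the *Krt14*-high, *Lor*-low cells of P18 mouse dorsal skin, picked from single-cell RNA sequencing counts under the name basal-like keratinocytes. The name rests on the rule, and their summed *Krt10*, a spinous keratin, stood above their *Krt14* in every library. A cell barcode was kept when at least 200 genes were detected and at most 20% of its counts came from mitochondrial genes. A kept cell was selected when it had at least 2000 CPM of *Krt14*, below 3000 CPM of *Lor* and below 1000 CPM of *Cers4*, where CPM is a gene's counts for each 1000000 counts of that cell. In all, 451 of 5760 kept cells met the rule, or 7.83%. They were 36 of 1480 kept cells in control 1, 49 of 1658 in control 2 and 366 of 2622 in the library labelled *Vdr* cKO. The last one, called the cKO-labelled library from here on, thus gave 81.2% of the selected cells. The rule rests on measured counts, so every gene of these cells counts as used in the choice, and the values that follow are a description with no test.

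The control libraries came from *Vdr* flox/flox mice and the other library from *Vdr* flox/flox; Krt14cre mice, so all libraries carried the floxed *Vdr* allele and only the last carried the Cre. The *Krt14* promoter drives this Cre in basal keratinocytes and in the cells that descend from them, and recombination removes exon 3 of *Vdr*. The methods state that the skin of 3 male mice was pooled for each library, treated with 0.25% trypsin for 20 min and scraped, and that cells were captured in droplets with the RNAdia 2.0 chemistry. With 1 library labelled *Vdr* cKO and pooled animals, the genotype and the library cannot be told apart.

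Basal keratinocytes sit on the basement membrane of the epidermis and of the outer root sheath of the hair follicle, where they divide and supply the layers above. They build a keratin network of *Krt5* and *Krt14* and tie it to the basement membrane through hemidesmosomes, which hold the plakin encoded by *Dst*, the transmembrane collagen encoded by *Col17a1* and the integrin made of the products of *Itga6* and *Itgb4*. On leaving the membrane, a cell switches to *Krt1* and *Krt10* in the spinous layer, and then to *Lor*, *Flg* and other genes of the cornified envelope in the granular layer. In catagen, the regressing phase of the hair cycle that P18 dorsal skin enters, the lower follicle shortens as its outer root sheath cells are lost.

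The label of the last library was looked at first. *Vdr*, at chr15:97854425-97910630 on the minus strand of GRCm38, which encodes the vitamin D receptor, was at 39.7 and 169 CPM in the selected cells of the controls and at 113 CPM in those of the cKO-labelled library. It was counted in 1 of 36, 7 of 49 and 78 of 366 selected cells. The cKO-labelled library thus lay between the controls, and a count for a whole gene does not show whether exon 3 is present, so this value does not check the deletion. *Xist*, the RNA that coats the inactive X chromosome, had no count in any kept cell of either control and 202 CPM in the selected cells of the cKO-labelled library, in 147 of 366 cells, although each library is stated to be from male mice. The other kept cells of that library had 129 CPM of *Xist*.

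*Krt14*, which chose the cells, lies at chr11:100203162-100207548 on the minus strand, and shares coding sequence with its neighbours *Krt16* and *Krt17*. Of 1649 windows of 50 bases along the *Krt14* transcript, 14.4% occur whole in a transcript of another gene. The run shared with *Krt17* is shown because *Krt17* is described in the same cells and because libraries of this kind count fragments near the 3′ end: it is 71 bases long, lies in exon 6 of 8 at chr11:100204114-100204184, and ends 319 bases before the end of the transcript. Capitals mark the bases shared with the *Krt17* transcript, and 30 bases of *Krt14* stand on each side.
*Krt14* and *Krt17*: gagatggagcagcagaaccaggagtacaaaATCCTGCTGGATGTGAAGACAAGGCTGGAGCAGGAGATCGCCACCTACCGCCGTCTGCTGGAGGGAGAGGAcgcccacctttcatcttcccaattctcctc
The run shared with a *Krt16* transcript is 134 bases long, but lies in exon 1, at chr11:100207017-100207150.
*Krt14* and *Krt16*: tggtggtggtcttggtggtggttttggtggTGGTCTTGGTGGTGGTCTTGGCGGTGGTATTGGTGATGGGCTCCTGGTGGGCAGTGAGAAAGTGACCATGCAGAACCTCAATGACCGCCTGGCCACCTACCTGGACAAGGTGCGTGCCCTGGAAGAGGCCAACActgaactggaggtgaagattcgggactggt
How reads that fit more than 1 of these genes were counted is not given in the sources used here, and their part in the *Krt14* and *Krt17* counts was not tested. For *Krt5*, 8.52% of windows are shared, with *Krt6a*, *Krt6b* and 2 predicted genes, and none of them in the last 600 bases. *Krt15* and *Krt10* share 0.666% and 0% of their windows.

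The selected cells were scarce in the controls. They made up 2.43% of kept cells in control 1 (exact Clopper-Pearson 95% interval 1.71% to 3.35%), 2.96% in control 2 (2.19% to 3.89%) and 13.96% in the cKO-labelled library (12.7% to 15.3%). The intervals cover counting error only, and those of the controls overlap each other and not that of the cKO-labelled library. With pooled mice and 1 such library, this is a difference between libraries.

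Part of that difference lay in the whole library and not in the *Lor*-low cells alone. Among cells with *Lor* below 3000 CPM and *Cers4* below 1000 CPM, 11.5%, 9.63% and 40.5% reached 2000 CPM of *Krt14* in control 1, in control 2 and in the cKO-labelled library. Within the same *Cers4* limit, among cells with *Lor* from 3000 to below 20000 CPM, the shares were 18.2%, 13.8% and 33.7%. Among cells with 20000 CPM of *Lor* or more, also within that *Cers4* limit, the shares were still 14.9%, 13.5% and 25.4%. These are granular cells by their *Lor* and should hold little *Krt14*. Over cells of all depths the share in the controls was lowest among *Lor*-low cells, while that in the cKO-labelled library was highest there. The cells of 20000 CPM of *Lor* or more within the *Cers4* limit were shallower, with medians of 3543, 4075 and 4682 counts against 8439, 13127 and 6327 in all *Lor*-low cells. Among cells with at least 5000 counts, the shares were 12.3%, 9.75% and 43.0% for *Lor*-low cells. They were 21.0%, 13.7% and 31.9% with *Lor* from 3000 to below 20000 CPM, and 8.54%, 6.34% and 25.6% with 20000 CPM or more. At this depth the *Lor*-low share of the controls thus lay above that of the highest *Lor* range and still below that of the middle range. Over all kept cells *Krt14* was at 857, 611 and 2008 CPM. Free RNA can give *Krt14* counts to cells that do not express it, and its part in these shares was not tested.

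**Figure D1:**
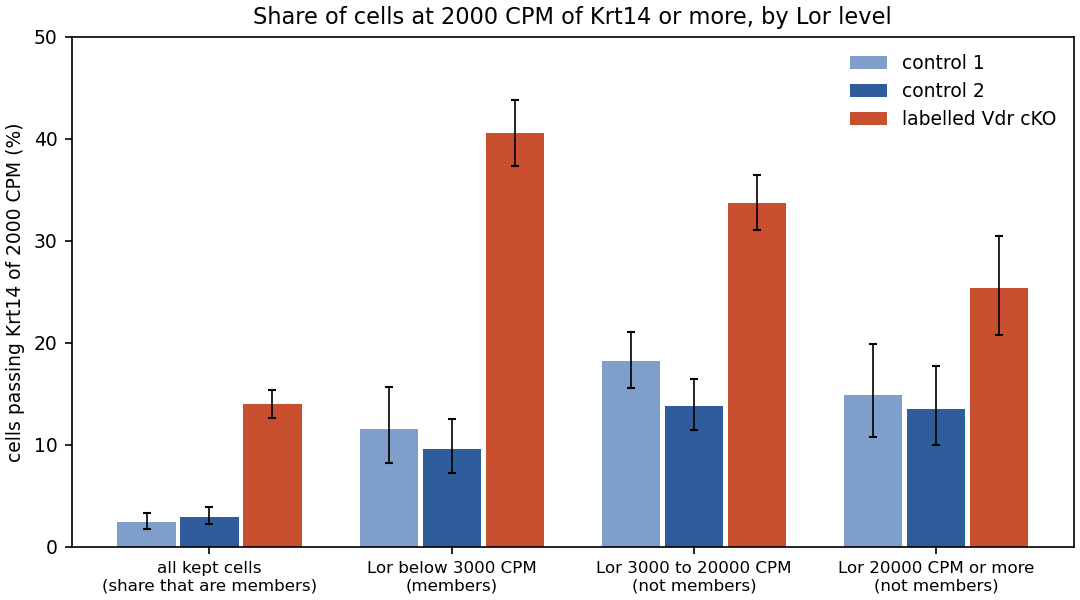
Share of cells (%) with at least 2000 CPM of *Krt14* in each library, among all kept cells (selected cells only) and within 3 ranges of *Lor*, with exact Clopper-Pearson 95% intervals as bars. The *Lor* ranges hold only cells below 1000 CPM of *Cers4*. The cKO-labelled library is above both controls in each range, with a share of 40.5% in the lowest and 25.4% in the highest *Lor* range.

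The limits cut through a continuous range. In the cKO-labelled library, 46 selected cells lay within 20% above the *Krt14* limit and 39 otherwise eligible cells within 20% below it. For *Lor*, 41 selected cells lay within 20% below the limit and 32 within 20% above it. In the controls, 1 and 5 selected cells were that near to the *Krt14* limit, and 7 and 4 to the *Lor* limit. The nearest cells on each side had 2240 and 1996 CPM of *Krt14* in control 1, 2041 and 1843 CPM in control 2, and 2002 and 1997 CPM in the cKO-labelled library.

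The selected cells held a median of 7388, 9860 and 6972 counts in control 1, in control 2 and in the cKO-labelled library, against 4143.5, 4363 and 3727.5 in the other kept cells. The *Lor*-low cells with little *Krt14* held 8791, 13430.5 and 5905, more than the selected cells in both controls. The selected cells had a median of 423.5, 713 and 1026 detected genes, or 58.1, 67.3 and 130 genes for each 1000 counts. The control cells thus spread their counts over fewer genes than those of the cKO-labelled library, and the other kept cells showed the same order, with 92.2, 120 and 170 genes for each 1000 counts. The *Lor*-low cells with little *Krt14*, at 64.1, 59.2 and 134, were near the selected cells. Mitochondrial genes took a median of 1.88%, 1.48% and 1.37% of the counts of a selected cell. Summed, the selected cells held 503674, 897140 and 5234664 counts. In control 1 the deepest cell gave 22.8% of them, in control 2 13.6% and in the cKO-labelled library 3.47%. No selected cell carried a barcode that another library also holds, where 27, 28 and 20 of the kept cells did.

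Against the other kept cells of the same library, 78 of 5594 genes with at least 50 CPM were over 2-fold higher in all 3 libraries (1.39%) and 192 were over 2-fold lower (3.43%), 4.83% in either direction. Levels here are counts summed over cells and given as CPM, and ratios are log2 values with 1 CPM added to each side. Over all of these genes the median log2 ratio was -0.69 in control 1, -0.03 in control 2 and 0.12 in the cKO-labelled library. In control 1 a typical gene was thus lower in the selected cells. The calls depended on how cells were weighted: of the 78 higher genes, 24 were still over 2-fold in all 3 libraries with the cells' own CPM averaged and 8 with each gene counted once per cell, and of the 192 lower genes 111 and 38. Counted once per cell, a gene's value is its share of all detections. That share falls where cells detect more genes, and a gene found in most cells has little room to rise. *Krt14*, found in every selected cell by the rule, itself lost its call there. A lost call or turned ratio under this count thus does not show that fewer cells held the gene. Under edgeR TMM factors the ratios shifted by -0.21, -0.19 and -0.27 and the calls became 37 higher and 309 lower, and DESeq2 median-of-ratios factors shifted them by 0.17, 0.06 and -0.09. Without control 1, 202 genes were called higher and 227 lower, and without control 2, 191 and 261.

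The basal keratins were higher in the selected cells, and *Krt14* by the rule itself. *Krt14* was at 9337 and 5173 CPM in the selected cells of the controls and 4771 CPM in those of the cKO-labelled library, against 624, 464 and 1446 CPM in the other cells. *Krt5*, at chr15:101707070-101712898, the partner with which *Krt14* forms basal filaments, was at 5549 CPM (exact Poisson 95% interval 5345 to 5759), 3052 CPM (2939 to 3168) and 4522 CPM (4464 to 4580), against 545, 336 and 1809 CPM. These intervals cover counting error only, take each count as a separate molecule and leave out the spread between cells. The log2 ratios of *Krt5* were 3.35, 3.18 and 1.32, so that the smallest ratio belonged to the library whose other cells held the most *Krt5*. *Krt5* was counted in 24 of 36, 37 of 49 and 341 of 366 selected cells, and the median cell had 2714, 1946 and 3737 CPM. A selected cell without a *Krt5* count was therefore common in the controls, where 33.3% and 24.5% had none, and less so in the cKO-labelled library, with 6.83%. When each gene was counted only once per cell, the *Krt5* ratio of the cKO-labelled library turned to -0.10. In that library *Krt5* was counted in 93.2% of the selected and 79.9% of the other cells. Those classes had a median of 1026 and 656 detected genes.

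*Krt15*, at chr11:100131758-100135928, a keratin of basal cells and of the follicle's stem cell region, was at 17482, 8702 and 12958 CPM against 2544, 1910 and 6567 CPM. Its log2 ratios were 2.78, 2.19 and 0.98, just short of 2-fold in the cKO-labelled library, so 2 of the 3 basal keratins were called higher, where *Krt14* was a choice of the rule and 1.39% of all genes were called. Counted once per cell, its ratio was below 0 in control 1 and in the cKO-labelled library.

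Of the 12 genes listed for hemidesmosomes and adhesion to the basement membrane, 9 reached 50 CPM and 3 were called higher, *Dst*, *Col17a1* and *Itgb1*, where 1.39% of all genes were. None was called lower. *Dst*, at chr1:33908225-34308661, was at 931, 668 and 1650 CPM in the selected cells and 273, 138 and 679 CPM in the others, with log2 ratios of 1.77, 2.27 and 1.28. It was counted in 20 of 36, 29 of 49 and 288 of 366 selected cells. *Col17a1*, at chr19:47646344-47692094, was at 361, 747 and 808 CPM against 66.1, 40.5 and 302 CPM, with log2 ratios of 2.43, 4.17 and 1.42. In control 1 it was counted in 10 of 36 cells and a single cell gave 61.0% of its counts, and averaging the cells' own CPM gave a log2 ratio of -0.25 there. Without that cell *Col17a1* was at 183 CPM in control 1, with a log2 ratio of 1.45. Each of the 3 calls depended on how cells were weighted. With the cells' own CPM averaged, the log2 ratios of *Dst* were 1.14, 0.94 and 0.72 and that of *Itgb1* in the cKO-labelled library was 0.49. With each gene counted once per cell, the ratios of the cKO-labelled library were 0.18 for *Dst*, 0.49 for *Col17a1* and 0.84 for *Itgb1*, so that none of the 3 was over 2-fold in every library under either alternative.

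*Itgb1*, at chr8:128685654-128733200, the beta subunit of integrins that bind extracellular matrix, was at 173, 274 and 154 CPM against 36.4, 12.5 and 44.1 CPM. It was the only gene of the list that was also over 2-fold higher than in the other *Krt14*-high cells, those with *Lor* of 3000 CPM or more, in all 3 libraries. It was counted in few cells, 4 of 36, 9 of 49 and 70 of 366. Of the hemidesmosome integrin, *Itga6* had log2 ratios of 1.38, 3.14 and 0.85, and *Itgb4* had no count in the selected cells of control 1 and was at 20.1 and 95.3 CPM in control 2 and in the cKO-labelled library. *Lamb3*, a chain of the laminin that anchors basal cells, had no count in control 1 but reached 130 CPM in control 2, and 116 CPM in the cKO-labelled library. *Plec*, which links keratin to hemidesmosomes, was at 47.6, 143 and 148 CPM, and at 94.8, 140 and 149 CPM in the other cells. The list's median log2 ratio was 0.00, 3.14 and 1.25, beside -0.69, -0.03 and 0.12 over all genes. In the selected cells of control 1, 6 of the 12 genes had no count.

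All 10 genes listed for basal regulators and growth reached 50 CPM, and 2 were called higher, *Ccnd2* and *Ccnd1*, where 1.39% of all genes were. They encode D-type cyclins that drive entry into the cell cycle. *Ccnd2* was at 540, 768 and 530 CPM in the selected cells and 83.8, 61.3 and 230 CPM in the others, in 8 of 36, 19 of 49 and 199 of 366 cells. The *Ccnd2* ratio of the cKO-labelled library, 1.20, was 0.98 with the cells' own CPM averaged and 0.56 with each gene counted once per cell. *Ccnd1* was counted in 1 cell of control 1 and 4 cells of control 2, and averaging the cells' own CPM brought its ratio in control 1 below 0. *Trp63*, the transcription factor that sets the basal state of stratified epithelia, was at 254, 276 and 406 CPM against 119, 130 and 217 CPM, and its log2 ratios of 1.09, 1.09 and 0.90 fell just short of 2-fold in the cKO-labelled library. *Egfr*, the receptor of epidermal growth factor, had no count in the selected cells of control 1. The list's medians were 0.12, 0.85 and 0.55, beside -0.69, -0.03 and 0.12 over all genes.

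**Figure D2:**
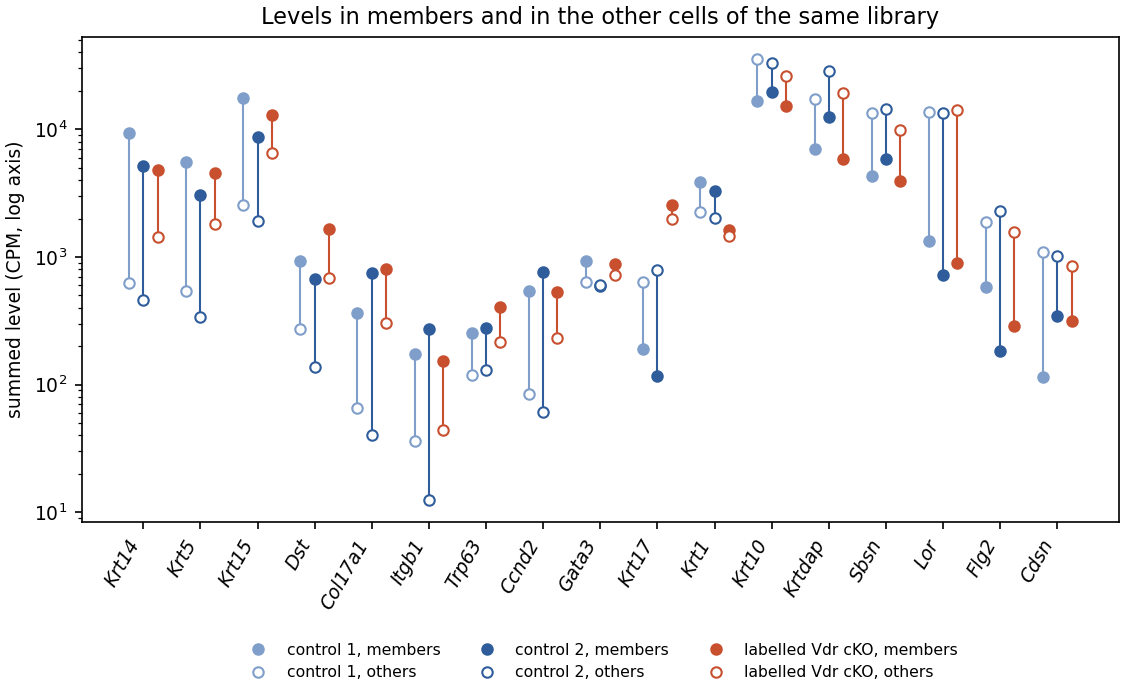
Summed level (CPM, log axis) of 17 list genes in the selected cells (filled, members) and in the other kept cells (open) of each library, joined by a line. *Krt5*, *Dst*, *Col17a1*, *Itgb1* and *Ccnd2* lie higher in the selected cells of every library, *Krtdap*, *Sbsn* and *Lor* lie lower, and *Krt17* lies lower in the controls and higher in the cKO-labelled library.

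Some genes of the spinous layer were lower in the selected cells and others were not. Of the 7 spinous genes, 3 were called lower, *Krtdap*, *Sbsn* and *Dsc1*, where 3.43% of all genes were, and none higher. *Krtdap*, a secreted product of suprabasal cells, was at 7074, 12543 and 5817 CPM against 17195, 28760 and 19186 CPM, with log2 ratios of -1.28, -1.20 and -1.72. *Sbsn*, which encodes suprabasin, was at 4281, 5882 and 3909 CPM against 13340, 14403 and 9921 CPM. *Dsc1*, a desmosomal cadherin of the upper layers, was counted in 3 of 36, 6 of 49 and 38 of 366 selected cells, and averaging the cells' own CPM turned its ratio in control 1 to above 0. With that averaging *Krtdap* alone of the 3 was still over 2-fold lower in every library, and with each gene counted once per cell none was. *Mt4*, a metallothionein of stratified epithelia, had log2 ratios of 0.66, 0.69 and -0.68.

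*Krt10*, at chr11:99385254-99389364, the main keratin of the spinous layer, was at 16767, 19591 and 15256 CPM in the selected cells against 35699, 33384 and 25980 CPM in the others. Its log2 ratios were -1.09, -0.77 and -0.77, and 35 of 36, 48 of 49 and 361 of 366 selected cells had a *Krt10* count. At least 10000 CPM of *Krt10* was found in 63.9%, 44.9% and 40.4% of them, and in 89.4%, 82.0% and 67.7% of the other cells. Nearly every selected cell thus held counts of the spinous keratin as well. In sums *Krt10* stood above the *Krt14* of the same cells in each library, at 9337, 5173 and 4771 CPM. The median selected cell had 13837.5, 7299 and 7004 CPM of *Krt10* against 5758, 4562 and 4386 CPM of *Krt14*. *Krt1*, the partner of *Krt10*, was higher in the sums of the selected cells, at 3887, 3304 and 1628 CPM against 2242, 2003 and 1459 CPM, a direction that turns in all 3 libraries when each gene is counted once per cell.

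All 10 genes of the granular and cornified list reached 50 CPM, and 7 were called lower, where 3.43% of all genes were, and none higher. Against the cells that were *Lor*-low with little *Krt14*, 1 of the 10 was lower, where 1.75% of all genes were. Of the 7, 6 were still over 2-fold lower in every library with the cells' own CPM averaged, and 3, *Flg*, *Hrnr* and *Aloxe3*, with each gene counted once per cell. *Lor*, at chr3:92080271-92083142, which encodes loricrin and was limited by the rule, was at 1328, 717 and 902 CPM against 13554, 13322 and 14175 CPM. *Flg*, the filaggrin gene, was at 13.9, 56.8 and 62.1 CPM against 904, 859 and 483 CPM. *Hrnr*, a relative of *Flg*, was at 37.7, 16.7 and 47.9 CPM against 485, 700 and 312 CPM. The other called genes were *Flg2*, *Cnfn*, *Cdsn*, and *Aloxe3*, a lipoxygenase of the skin barrier that had no count in the selected cells of either control. *Abca12*, a lipid transporter, had log2 ratios of -2.15, -1.48 and -0.87, *Casp14* of 0.17, -1.21 and -0.92, and *Tgm3*, which cross-links the cornified envelope, of -3.79, 3.10 and 1.08. The list's medians were -3.29, -2.93 and -2.56, below those over all genes in each library.

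**Figure D3:**
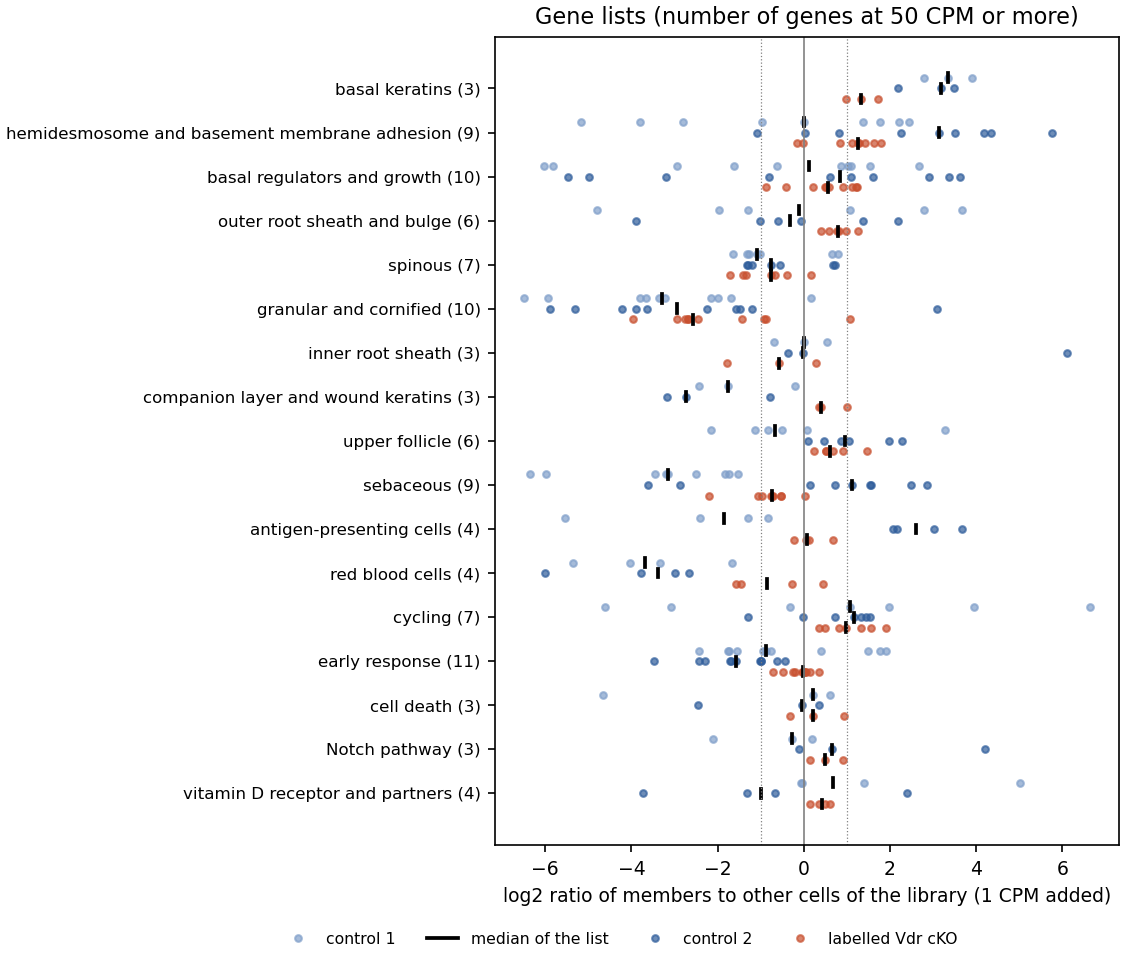
Log2 ratio of the selected cells to the other kept cells for each gene at 50 CPM or more, by list and library; black ticks mark a list's median and dotted lines a ratio of 2-fold. The medians of the basal keratins lie to the right and those of the granular list to the left in all 3 libraries, while points of the controls scatter more widely than those of the cKO-labelled library.

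The genes with the largest ratios were mostly counted in very few control cells. The 10 highest by their least extreme library were *Esco2*, *Miip*, *Eif4e3*, *Smpd4*, *Kcnj15*, *Aspm*, *Diaph3*, *Itgb1*, *Ube2c* and *Krt14*. *Esco2*, which joins sister chromatids, was at 91.3, 34.6 and 31.9 CPM against 0.601, 1.01 and 5.56 CPM, but in 3 of 36, 3 of 49 and 15 of 366 selected cells. *Aspm*, which acts in mitosis, rested on 1 cell in each control. The 10 lowest were *Fgf22*, *Btc*, *Tmprss11f*, *Lce6a*, Krtap3-2, *Sod3*, *Lce1m*, *Lipn*, *5430427M07Rik* and *Lor*. *Btc*, which encodes the growth factor betacellulin, was at 1.99 CPM in the selected cells of control 1, had no count in control 2 and was at 25.4 CPM in the cKO-labelled library, against 309, 305 and 453 CPM in the other cells.

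Restricting to the 1767 genes with a count in at least 10% of the selected cells, or of the other cells, in every library left 20 genes higher (1.13%) and 85 lower (4.81%), 5.94% in either direction. The higher genes were *Itgb1*, *Krt14*, *Hmgn2*, *Col17a1*, *Fbxo32*, *Krt5*, *Slc6a6*, *Dst*, *Mt2*, *Pik3r1*, *Igfbp3*, *Ccnd2*, *S100a6*, *Glul*, *Golim4*, *Tspo*, *Myh9*, *Map3k4*, *Crip1* and *Nedd4*. This restriction was chosen after the values were seen, and a gene can pass it through the class where it is high. Of the higher genes, only *Krt14*, *Krt5*, *Dst*, *Mt2* and *Pik3r1* had a count in 10% of the other cells of both controls. *Myh9* did in control 2 alone. All the rest, *Col17a1*, *Itgb1* and *Ccnd2* among them, passed in both controls through the selected cells only. The number of higher genes is thus largely set by the restriction. Besides the marker genes, they held *Slc6a6*, the taurine transporter, at 1173, 385 and 340 CPM against 41.2, 52.9 and 137 CPM, with 35.0% of the counts of control 1 from a single cell. *Glul*, which encodes glutamine synthetase, was at 1167, 225 and 397 CPM against 48.5, 38.5 and 179 CPM, and a single cell gave 68.5% and 46.5% of its counts in the selected cells of the controls. *Mt2*, a metallothionein that binds zinc and copper, was at 433, 697 and 333 CPM against 65.4, 82.5 and 138 CPM. *Mt2* was counted in 14 of 36, 24 of 49 and 167 of 366 selected cells, against 11, 19 and 171 cells for *Slc6a6* and 10, 11 and 170 for *Glul*. The 10 lowest of the 85 were *Lce1m*, *Lor*, *Flg*, *Crct1*, F3, *Cysrt1*, *Krt23*, *Hrnr*, *Lce1c* and *Lce1a2*. *Lce1m* was at 266, 206 and 160 CPM against 3110, 2248 and 2137 CPM.

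*Krt5*, *Dst* and other genes were also compared at an equal number of counts per cell. Counts were drawn at random down to 1000 in every cell, which left out 3 selected cells of the cKO-labelled library and none of the controls, and the share of cells with a count was set beside that in all kept cells with 20000 CPM of *Lor* or more, here without the *Cers4* limit, where basal genes should be low. *Krt5* was found in 61.1% (exact Clopper-Pearson 43.5% to 76.9%), 61.2% (46.2% to 74.8%) and 82.6% (78.3% to 86.4%) of the selected cells, and in 29.8%, 20.6% and 62.7% of the *Lor*-high cells. *Dst* was found in 38.9%, 34.7% and 56.2% of the selected cells and in 9.56%, 12.2% and 25.8% of the *Lor*-high cells. For *Krt5* and *Dst* the share was higher in the selected cells of each library and the intervals did not overlap. Here and in the next paragraph, the intervals cover counting error only, and cells of a pooled library are not replicates. Both classes were also chosen on the same counts, so this is a description and no test. Thinning sets the counts equal and not the number of genes they fall on, which differed between the classes and libraries as given above. Before thinning, the shares with a *Krt5* count were 66.7%, 75.5% and 93.2% in the selected cells and 38.3%, 34.3% and 83.4% in the *Lor*-high cells, at median depths of 7388, 9860 and 6972 against 3622, 3892 and 4654.5 counts.

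*Col17a1* did not stand above that level in control 1, with 5.56% (0.680% to 18.7%) of selected and 5.15% of *Lor*-high cells, but did in control 2, with 26.5% against 4.18%, and in the cKO-labelled library, with 33.1% against 12.1%. Its unthinned shares were 27.8%, 38.8% and 68.6% in the selected cells and 7.94%, 8.73% and 36.0% in the *Lor*-high cells. After thinning, *Krt15* was found in 69.4%, 77.6% and 95.0% of the selected and 59.2%, 54.3% and 84.5% of the *Lor*-high cells. *Trp63* was in 11.1%, 12.2% and 19.8% against 1.84%, 5.79% and 7.27%. *Itgb1* was in 5.56%, 8.16% and 7.16% against 0.735%, 2.25% and 1.82%. *Itga6* was in 0%, 8.16% and 4.96% against 1.84%, 0.965% and 2.12%. The intervals overlapped in all 3 libraries for *Itga6*, in both controls for *Itgb1* and *Trp63*, and in control 1 for *Krt15*. *Ccnd2* was found in 16.7%, 24.5% and 28.7% of the selected cells and 2.21%, 3.86% and 10.9% of the *Lor*-high cells, and in 22.2%, 38.8% and 54.4% against 4.69%, 10.5% and 23.8% before thinning. *Krt10* was found in 97.2%, 83.7% and 91.7% of the thinned selected cells and 98.5%, 95.8% and 97.0% of the *Lor*-high cells, with intervals that overlapped in control 1 and lay apart in control 2 and the cKO-labelled library. The *Lor*-high share of *Krt5* in the cKO-labelled library, 62.7%, was level with the selected cells' share in either control.

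**Figure D4:**
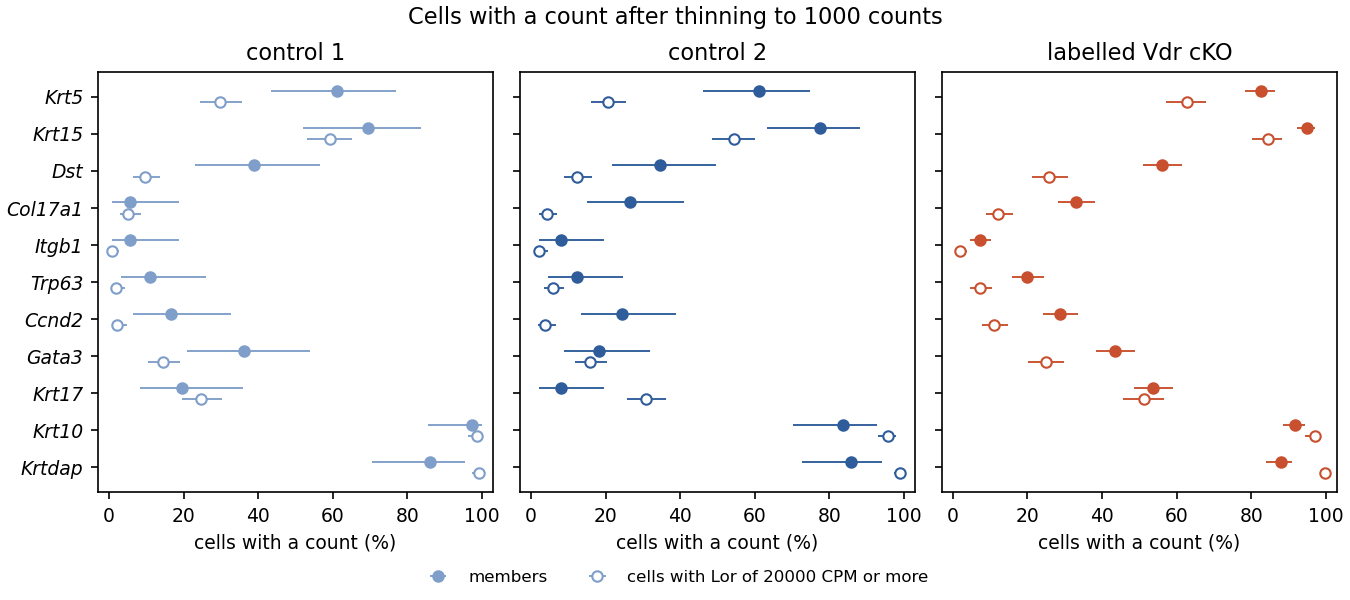
Share of cells (%) with a count after thinning to 1000 counts for 11 genes, in the selected cells (filled) and in cells with 20000 CPM of *Lor* or more (open), with exact Clopper-Pearson 95% intervals, 1 panel for each library. *Krt5* and *Dst* lie higher in the selected cells in every panel, and the shares of *Krt5*, *Krt15* and *Krt17* within each class are highest in the cKO-labelled library.

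Set against the classes most like them, the selected cells kept part of these differences. The other *Krt14*-high cells, with *Lor* of 3000 CPM or more, numbered 183, 147 and 497. Of 6185 genes, 95 were over 2-fold higher in the selected cells in all 3 libraries (1.54%) and 238 lower (3.85%), 5.38% in either direction, and under TMM factors 67 and 309. None of the 3 basal keratins and 1 of 9 adhesion genes, *Itgb1*, was among the higher ones, while 8 of 10 granular genes and 2 of 7 spinous genes were lower. The numbers of higher and lower genes were 27 and 153 with 10 CPM added. They were 241 and 301 without control 1, and 196 and 312 without control 2. The log2 ratios of *Krt5* were 1.39, 0.60 and 0.47 and those of *Dst* 0.43, 1.09 and 0.80. The *Krt14*-high cells on both sides of the *Lor* limit thus differed by under 2-fold in *Dst* in control 1 and the cKO-labelled library and in *Krt5* in control 2 and the cKO-labelled library.

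The *Krt14*-low cells that were also *Lor*-low numbered 276, 460 and 537. Of 5711 genes, 86 were higher in the selected cells (1.51%) and 100 lower (1.75%), 3.26% in either direction. The split became 57 and 171 under TMM factors, and 81 and 168 when mitochondrial genes and the 20 most abundant genes were left out of the total. It tilted the other way, to 136 higher and 72 lower, with the *Krt14* limit at 1000 CPM, to 83 and 53 with *Lor* below 6000 CPM, to 39 and 24 at a minimum level of 200 CPM, to 242 and 121 without control 1 and to 195 and 149 without control 2, so no balance between the directions can be read from it. *Krt14* and *Krt5*, and of the adhesion genes *Col17a1* and *Itgb1*, were among the higher ones. *Sbsn*, *Dsc1* and *Hrnr* were among the lower ones. The log2 ratios of *Krt10* were -1.44, -1.06 and -0.92, further below 0 than its ratios against the other *Krt14*-high cells of -0.66, -0.32 and -0.36. Of these classes, *Krt10* was highest in the *Lor*-low cells with little *Krt14*, at 45437, 40886 and 28776 CPM. Of the sebaceous list, 3 of 9 tested genes were also among the higher ones, *Soat1* and *Fa2h* among them. Of the cycling list, 2 of 7 were, *Mki67* and *Cdk1*, with *Mki67* counted in 1 cell of each control. Of all genes 1.51% were higher. Of the red blood cell list, 2 of 4 genes were among the lower ones, where 1.75% of all genes were.

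Of the lists for the outer root sheath and bulge, the inner root sheath, the companion layer, and the upper follicle, none had a gene called in either direction, with 6, 3, 3 and 6 genes at 50 CPM or more. Of all genes 4.83% were called in either direction, so a count of 0 in lists of this size is near that share, and *Krt15* of the first list, given above, fell just short. No gene of the hair shaft and matrix list reached that level. *Gata3*, a transcription factor of the inner root sheath that the interfollicular epidermis also expresses, was at 927, 592 and 878 CPM against 637, 598 and 717 CPM. *Dst* and *Gata3* were found in the same selected cell, after thinning, in 19.4%, 4.08% and 26.2% of cells, where the product of the single shares is 14.04%, 6.37% and 24.5%. The shares of cells with both were near that product in each library, given intervals of 8.19% to 36.0%, 0.498% to 13.98% and 21.7% to 31.0%, which all hold the product. Before thinning, 38.9%, 30.6% and 62.8% of the selected cells had both.

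*Krt17*, a keratin of the outer root sheath, companion layer and stressed epidermis, lay in summed counts on opposite sides of the other cells in the controls and in the cKO-labelled library. It was at 189 and 117 CPM in the selected cells of the controls, against 639 and 785 CPM in their other cells, and at 2552 CPM in the selected cells of the cKO-labelled library, against 1987 CPM in its other cells. It was counted in 10 of 36, 11 of 49 and 279 of 366 selected cells, and a single cell gave 52.6% and 75.2% of the counts in the controls. After thinning it was found in 19.4%, 8.16% and 53.7% of the selected cells and in 24.6%, 30.9% and 51.2% of the *Lor*-high cells, and before thinning in 27.8%, 22.4% and 76.2% and in 36.8%, 49.1% and 76.2%. With each gene counted once per cell, its log2 ratio of selected to other cells was below 0 in every library. In no library was the share of the selected cells clearly above that of the *Lor*-high cells.

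Markers of other cell types were few but uneven. The lists of T cells, antigen-presenting cells, sebaceous cells and red blood cells together gave at least 1% of the counts in 1, 7 and 12 selected cells. The T cell list summed to 401, 17.8 and 163 CPM in the selected cells, against 20.2, 18.9 and 55.7 CPM in the other cells. In the selected cells *Nkg7* led it in control 1 through 2 cells, and 4, 6 and 0 of its 7 genes had no count. *Cd3d* and *Cd3e*, which encode chains of the T cell receptor complex, had no count in either control, and *Cd3g* was at 141 CPM in control 1, in 2 cells, had no count in control 2 and was at 46.4 CPM in the cKO-labelled library, where it led the list.

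The list of antigen-presenting cells summed to 47.6, 1836 and 391 CPM in the selected cells, against 172, 209 and 313 CPM in the other cells. In the selected cells 2, 1 and 1 of its 6 genes had no count. It was led in each library by *Cd74*, the class II invariant chain, at 25.8, 1248 and 219 CPM, and a single cell gave 62.1% of the *Cd74* counts of control 2. The sebaceous list, without cells of 1000 CPM or more of *Cers4* by the rule, summed to 703, 7800 and 1433 CPM in the selected cells. It summed to 4574, 2397 and 2201 CPM in the other cells, which hold such cells. In the selected cells 1, 0 and 0 of its 9 genes had no count. In control 2 it was led by *Scd3*, a fatty acid desaturase, at 4239 CPM, of which a single cell gave 52.6%.

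The red blood cell list summed to 3.97, 50.2 and 25.98 CPM, below the other cells' 106, 477 and 70.0 CPM, and 2 of its 4 genes, Hba-a1 and Hba-a2, were called lower, where 3.43% of all genes were. With the cells' own CPM averaged Hba-a1 was still called, and with each gene counted once per cell neither was. Melanocyte genes summed to 3.97, 0 and 73.4 CPM, with *Pmel* without a count in both controls, fibroblast genes to 0, 31.2 and 99.9 CPM, led by *Vim* with no count of *Col1a2* or *Col3a1* in any library, and endothelial and smooth muscle genes to 0, 0 and 0.573 CPM. Control 2 was thus highest in the antigen-presenting and sebaceous lists, and the cKO-labelled library in the melanocyte and fibroblast lists. Between libraries *Dct* of the melanocyte list was called above in the selected cells, at 3.97, 0 and 65.3 CPM in 1, 0 and 10 cells, and *Vim* at 0, 31.2 and 89.6 CPM in 0, 3 and 24 cells, and with each gene counted once per cell neither was called. Their part in the differences between libraries was not tested. Without the cells that held 1% or more of the counts named first, the number of genes called against the other cells was 315 in place of 270, and the log2 ratios of *Krt5* were 3.37, 3.36 and 1.32.

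At least 1 gene of the cycling list was counted in 17 of 36, 23 of 49 and 248 of 366 selected cells. Of its 12 genes 7 reached 50 CPM, and none was called against the other cells, where 4.83% of all genes were in either direction. The list's medians were 1.08, 1.17 and 0.97. *Hmgb2*, a chromatin protein abundant in dividing cells, was at 1032, 448 and 424 CPM against 262, 270 and 300 CPM. *Mki67*, the classical marker of dividing cells, was counted in 1 of 36, 1 of 49 and 52 of 366 selected cells. In the cKO-labelled library it was at 141 CPM against 36.9 CPM in the other cells, and *Top2a*, which untangles chromosomes in mitosis, at 178 against 70.1 CPM. Between libraries *Cenpf*, a kinetochore gene, was called above, at 0, 7.80 and 117 CPM, 1 of the 7 where 14.4% of all genes were. The control values of *Mki67* and *Cenpf* rest on so few cells that no order between libraries can be read from them.

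The selected cells were then compared between libraries. A gene was called when the cKO-labelled library was over 2-fold above, or over 2-fold below, both controls, which gave 752 of 5210 genes above (14.4%) and 236 below (4.53%), 19% in either direction. In the other kept cells the same rule gave 122 of 3872 genes above (3.15%) and 30 below (0.775%), 3.93% in either direction. The controls differed from each other by over 2-fold in 3668 of the 5210 genes in the selected cells (70.4%), and in 212 of 3872 genes in the other cells (5.48%). The spread between the controls was thus large in sums over 36 and 49 cells, where 50 CPM is 25.2 and 44.9 counts, against 262 counts in the cKO-labelled library. In the selected cells, 48 of the 752 genes had no count in either control. Under DESeq2 median-of-ratios factors, which shifted the ratios to control 1 and control 2 by -0.32 and -0.28, 446 genes lay above and 347 below, and under edgeR TMM factors, with shifts of -0.07 and -0.14, 624 and 278. At a minimum of 200 CPM the balance turned, with 65 above and 100 below. The limit of 50 CPM bears on these counts, since 641 of the 752 genes reached it in the selected cells of the cKO-labelled library alone, and 170 of the 236 in those of the controls alone. With each gene counted once per cell 208 of the 752 and 60 of the 236 were still called the same way, and with the cells' own CPM averaged 534 and 113. Without control 1 the number called was 2292 and without control 2 it was 2955, in place of 988.

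The 10 genes furthest above the nearer control were *Pinlyp*, *Xist*, *Timp3*, *Palld*, *Selenop*, *Cntrl*, *Atp6v1c1*, *Yipf3*, *Id1* and *Sfrp1*, none with a count in the selected cells of either control. Against a floor of 3 counts in control 1, *Timp3*, an inhibitor of matrix metalloproteinases, was 29.9-fold that floor. *Palld*, which encodes an actin-binding protein, was 26.6-fold, and *Sfrp1*, a secreted Wnt inhibitor of follicle stem cells, 13.2-fold. These ratios cover counting error only and take each count as a separate molecule, while the 932 counts of *Timp3* came from 74 cells. *Timp3*, *Palld* and *Sfrp1* were counted in 20.2%, 18.3% and 11.2% of the selected cells of the cKO-labelled library. No count in the controls allows up to 8.33% and 6.12% of their selected cells. The genes were also picked for their extreme ratios, so these are no bounds on a difference between cells. *Timp3* was at 178 CPM in the selected cells of the cKO-labelled library, and at 13.3, 29.1 and 98.7 CPM in the other cells of the libraries in the same order. *Pinlyp* was at 303 CPM in 38 of 366 cells, with 46.6% of its counts from 1 cell. The 10 furthest below were *Fyn*, *Zfp341*, *Poli*, *5830444F18Rik*, *Rbsn*, *Ces4a*, *Efcab1*, *Rbm4b*, *Alas1* and *Acot8*, and no more than 6 cells of a control held any of them.

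None of the 3 basal keratins was called between libraries in the selected cells. *Krt5* lay between the controls, at 4522 CPM against 5549 and 3052 CPM, and so did *Krt15*, at 12958 CPM against 17482 and 8702 CPM. In the other kept cells all 3 were called above, where 3.15% of all genes were, with *Krt5* at 1809 CPM against 545 and 336 CPM. The rule sets a lowest level of *Krt14* for the selected cells of each library and no highest level. Of the basal regulators, *Id1* and *Yap1*, a mechanosensitive cofactor of transcription that was at 35.7, 11.1 and 88.4 CPM, were called above, 2 of 10 tested genes where 14.4% of all genes were. *Yap1* was no longer called with each gene counted once per cell. Of the adhesion list, *Itgb4* and *Cd151*, 2 of 9 tested genes, were called above in the selected cells, where 14.4% of all genes were. Both had no count in control 1, and neither was over 2-fold above both controls with each gene counted once per cell. In the other cells *Dst*, *Col17a1* and *Itga6* of this list were called above, where 3.15% of all genes were.

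Of the outer root sheath and bulge list, 4 of 6 genes were called above in the selected cells, *Sox9*, *Postn*, *Fst* and *Nfatc1*, where 14.4% of all genes were. *Sox9*, *Postn* and *Nfatc1* reached 50 CPM in the selected cells of that library alone, so the limit itself bears on this count. With each gene counted once per cell *Sox9* and *Nfatc1* were still called. In the other cells 4 genes of the list, *Krt15*, *Sox9*, *Postn* and *Fst*, were called above, where 3.15% of all genes were. *Sox9*, a transcription factor of outer root sheath and bulge cells, was at 13.9, 23.4 and 294 CPM in the selected cells and at 57.5, 24.4 and 165 CPM in the other cells. It was counted in 2 of 36, 4 of 49 and 139 of 366 selected cells. *Postn*, which encodes periostin, was at 17.9, 1.11 and 118 CPM, and *Fst*, the activin antagonist follistatin, at 3.97, 60.2 and 131 CPM. *Lhx2*, a factor of bulge cells, was at 83.4 CPM in control 1, in 2 cells, had no count in control 2 and was at 26.6 CPM in the cKO-labelled library.

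All 3 tested genes of the companion layer and wound keratin list were called above, where 14.4% of all genes were. With each gene counted once per cell the log2 ratios to control 1 and control 2 were 0.37 and 1.37 for *Krt17* and 0.47 and 0.60 for *Krt16*, and *Krt6a* alone was still called. *Krt17* was at 189, 117 and 2552 CPM, as given, and in the other cells at 639, 785 and 1987 CPM. *Krt6a*, a keratin of the companion layer and of wounded epidermis, was at 11.9, 3.34 and 282 CPM, in 1, 1 and 94 cells, and *Krt16* at 7.94, 6.69 and 83.3 CPM. The cKO-labelled library was thus above both controls in *Krt17* in the selected and in the other cells. Of the inner root sheath list, *Tchh*, the trichohyalin gene, was called above, with no count in the selected cells of the controls and 55.6 CPM in the cKO-labelled library, below the 195 CPM of its other cells. Of the upper follicle list, *Krt79*, a keratin of the infundibulum, was called above at 131, 514 and 1115 CPM, and *Gata6* at 0, 6.69 and 63.8 CPM, 2 of 6 tested genes. With the cells' own CPM averaged *Gata6* alone was still called, and with each gene counted once per cell neither was. *Cst6*, a cystatin, was at 641, 3619 and 3699 CPM and was not called.

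Of the early response list, 5 of 11 genes were called above in the selected cells, *Jun*, *Junb*, *Egr1*, *Ier2* and *Zfp36*, where 14.4% of all genes were, and 6 of 11 in the other cells, where 3.15% were. With the cells' own CPM averaged the 4 other than *Egr1* were still called, and with each gene counted once per cell none was. These genes respond within minutes to stress, including the release of cells from tissue. *Jun* was at 145, 165 and 1214 CPM in the selected cells and 246, 256 and 1102 CPM in the other cells. The list summed to 1864, 799 and 4490 CPM in the selected cells and 1934, 1885 and 4546 CPM in the other cells, so the cKO-labelled library stood above the controls in both classes. Its part in the other differences between libraries was not tested.

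**Figure D5:**
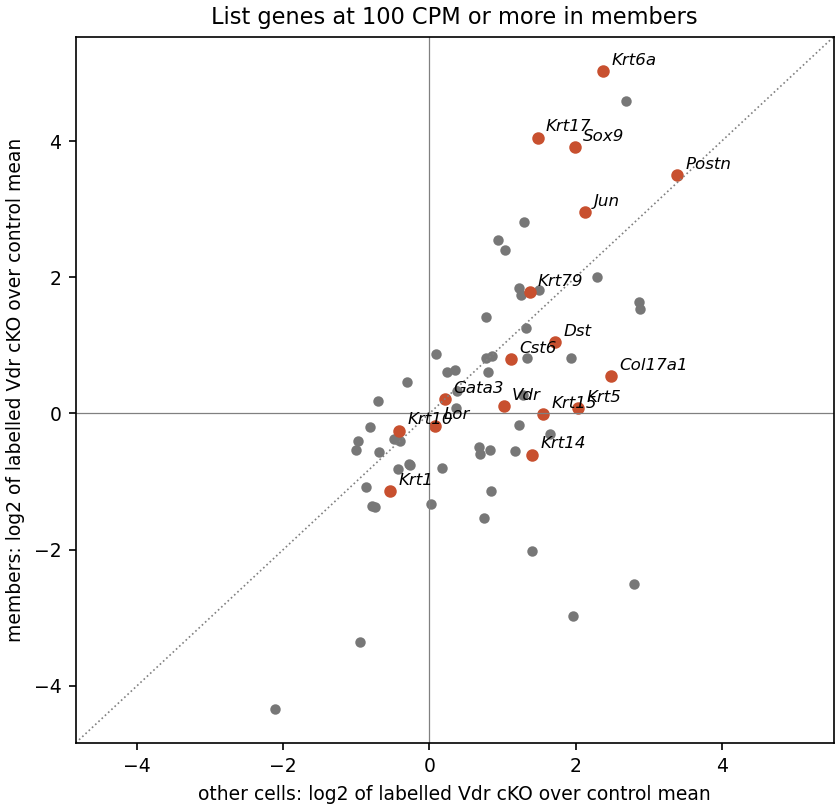
Log2 ratio of the cKO-labelled library to the mean of the controls for 69 list genes with at least 100 CPM in the selected cells of a library, in the other cells (horizontal axis) and in the selected cells (vertical axis); the dotted line marks equal ratios, and named genes are in red. *Krt17*, *Krt6a* and *Sox9* lie above the line and *Krt14*, *Krt5*, *Krt15* and *Col17a1* below it; both axes rest on the same 3 libraries.

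Of the differentiation genes, *Krt1* was called below, at 3887, 3304 and 1628 CPM, as was *Cnfn*, which encodes cornifelin, at 224, 210 and 84.1 CPM; 1 of 7 spinous and 1 of 10 granular genes were thus called, where 4.53% of all genes were. Neither was still called with each gene counted once per cell. *Krt10* was at 16767, 19591 and 15256 CPM, within 2-fold of both controls. Of the cell death list, with 3 of 10 genes at 50 CPM or more, *Bax*, which promotes apoptosis, was called above at 31.8, 34.6 and 77.9 CPM, in 2, 2 and 49 cells, where 14.4% of all genes were. With each gene counted once per cell it was no longer called. *Mcl1*, which protects cells from apoptosis, was at 159, 114 and 144 CPM. *Bcl2*, of the same family, had no count in the selected cells of the controls and was at 33.4 CPM in the cKO-labelled library, in 18 of 366 cells. That level is below the 50 CPM needed for a call, and in the controls a count of 0 allows up to 5.96 and 3.34 CPM. Of the Notch list, *Hes1*, the pathway's main target, was called above at 53.6, 80.3 and 239 CPM, 1 of 3 tested genes where 14.4% of all genes were. Its call was lost with the cells' own CPM averaged and with each gene counted once per cell. Of the vitamin D receptor and its partners, none of 4 tested genes was called, where 19% of all genes were in either direction. *Rxra*, with which the receptor pairs, was at 435, 95.9 and 151 CPM, and *Hr*, the hairless corepressor, at 135, 75.8 and 195 CPM.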

How the data were processed

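Single-cell libraries of P18 dorsal skin, 2 from controls and 1 labelled *Vdr* cKO, were used. The deposited values are raw counts, 1 matrix of genes by barcodes for each library. The labels name the build mm10 and the paper names Seurat v4; the aligner, annotation and collapse of molecules are not given in the sources used here, so counts can include PCR copies. Barcodes left out numbered 1308, 802 and 160. The kept cells held 18802408, 28690129 and 30954897 counts. No doublet caller was used here. Counts were summed over cells and given as CPM, 1 CPM was added for log2 ratios, and genes with 50 CPM or more in the selected or other cells of at least 1 library were compared. No test was made, since the cells were chosen on the same counts and 1 library carries the label *Vdr* cKO. The named genes are those of the lists, and the 10 highest and 10 lowest called genes of a comparison. The members and lists were chosen with earlier results of these data known.

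Exact intervals are at 95%. A count of 0 allows 3 counts, or 5.96, 3.34 and 0.573 CPM in the selected cells and 8.33%, 6.12% and 0.820% of them. Gene positions and transcripts are from GENCODE M21, GRCm38. Python 3.11.15, numpy 2.4.6, scipy 1.17.1, pandas 2.3.3, matplotlib 3.10.9, R 4.3.3, edgeR 4.0.16 and DESeq2 1.42.0 were used, the last pair for scaling factors only. The calling steps were run on simulated sums with no spread between cells and a minimum of 200 CPM. That run checks the code and not the calls at 50 CPM, which can rest on few cells. Alternatives were other limits for *Krt14*, *Lor*, cells and levels, other scaling and sums, and leaving out each control. Those chosen after seeing the data left out shared barcodes or cells rich in other types' markers, counted each gene once per cell, required a count in 10% of cells, left out the cell with most *Col17a1* counts, or scaled the marker ratios by other factors.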

Additional observations from a re-analysis of the deposited data

Results flagged for a closer look

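*Krt17* and *Jun* stood out because the selected cells lay on opposite sides of the other cells in the cKO-labelled library and in both controls. For *Krt17* the log2 ratio of selected to other cells was 0.36 in the cKO-labelled library and -1.75 and -2.73 in the controls. For *Jun* it was 0.14, and -0.76 and -0.63 in the controls. The difference was not tested, since there is 1 such library. Counted once per cell, the ratio of *Krt17* in the cKO-labelled library was -0.24, below 0 as in the controls, and the ratios of *Jun* were -0.09 there and 0.28 and -1.60 in control 1 and control 2. In the cKO-labelled library 76.2% of the selected and 72.1% of the other cells had a *Krt17* count. With the cells' own CPM averaged, the ratio of *Jun* in control 2 was 0.67.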

How the results depend on the processing

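The share of selected cells moved with the limits. It was 3.45%, 4.16% and 18.7% in control 1, control 2 and the cKO-labelled library at 1000 CPM of *Krt14*, 1.55%, 1.93% and 7.51% at 4000 CPM, 1.28%, 2.11% and 10.1% with *Lor* below 1500 CPM, and 4.80%, 4.46% and 18.8% with *Lor* below 6000 CPM. The cKO-labelled library was above both controls under each of these limits. The number of genes called against the other cells, 270, was 117 at 200 CPM, 750 with no minimum level, 104 with each gene counted once per cell, 105 among genes in 10% of cells, and 429 without control 1 and 452 without control 2. Against the other *Krt14*-high cells, 333 became 180 with 10 CPM added, 112 at 200 CPM, 526 with no minimum level, and 542 without control 1 and 508 without control 2. Against the *Krt14*-low, *Lor*-low cells, 186 became 88 with 10 CPM added, 63 at 200 CPM, 526 with no minimum level, and 363 without control 1 and 344 without control 2. Between libraries, 988 became 165 at 200 CPM, 65 above and 100 below, 5699 with no minimum level, 658 among genes in 10% of cells of every library or of the cKO-labelled one, which admits genes through the library where they are high, and 2292 without control 1 to 2955 without control 2. A call needs the fold in every library used, so leaving out a control loosens the rule. The minimum level sets how many genes are compared, with 1882 against the other cells at 200 CPM and 19806 with none. The causes of the other changed counts were not tested. The *Col17a1* ratio of control 1 turned from 2.43 to -0.25 with the cells' own CPM averaged. The *Krt5* ratio of the cKO-labelled library turned from 1.32 to -0.10 with each gene counted once per cell. The cause of these turns was not tested. The labels give no pairing between the libraries, so no paired analysis was possible, and no test was made. The other 67 alternative values of these shares and counts stayed within the share's interval or within 1.5 times the count.

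The controls hold 36 and 49 selected cells, so a gene at 50 CPM there can be a single cell. Doublets were not removed, and their part in these values was not tested. Without the deepest 5% of cells 63 genes were called higher and 198 lower than in the other cells.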
